A study of Mus musculus with 6 samples.

Results

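The genes described are 10 plasma serpins of the A family in mouse liver, chosen by symbol from the 43346 gene IDs counted: Serpina1a, Serpina1b, Serpina1c, Serpina1d, Serpina1e, Serpina3k, Serpina3m, Serpina3n, Serpina3c and Serpina6. All 10 were found in the tables and all 10 passed the filter on low counts. The libraries came from liver of C57BL6 mice aged 3 months, with 3 labelled Control and 3 labelled DKO, which stands for a hepatocyte-specific double knockout of β-catenin and γ-catenin. Neither the driver of the deletion nor the alleles carried by the Control mice are stated in the sources used. No label says that each library is a separate mouse, so the p-values may reflect technical spread between libraries alone.

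Serpins are secreted proteins that trap a protease by offering it an exposed stretch, the reactive centre loop, and then changing shape around it once the loop is cut. The liver makes most of the clade A serpins of plasma. Human α1-antitrypsin, the main plasma inhibitor of neutrophil elastase, comes from a single gene, which rodents have copied. Serpina1a to Serpina1e are these mouse copies. The Serpina3 genes are copies related to human α1-antichymotrypsin. Serpina3k is a long-known kallikrein-binding protein of mouse plasma, and Serpina3n is a leading acute phase gene of this group. Serpina6 is the exception by function: it encodes corticosteroid-binding globulin, which carries glucocorticoid hormones and inhibits no known protease.

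The members lie together on chromosome 12 of mm10, between 103646630 and 104414329, a span of 767.7 kb. Positions and exons are from GENCODE M21 on that build. Serpina6 (ENSMUSG00000060807) runs from 103646630 to 103657212 on the minus strand. The Serpina1 copies follow it on the same strand: Serpina1b (ENSMUSG00000071178) at 103728156 to 103830373, Serpina1d (ENSMUSG00000071177) at 103763594 to 103773592, Serpina1a (ENSMUSG00000066366) at 103853589 to 103863562, Serpina1c (ENSMUSG00000079015) at 103894926 to 103904887 and Serpina1e (ENSMUSG00000072849) at 103946931 to 103958975. Serpina1d therefore lies inside the annotated span of Serpina1b, but they share no exonic base. Serpina3c (ENSMUSG00000066361) is at 104146382 to 104153870 on the minus strand. Serpina3k (ENSMUSG00000058207) at 104338486 to 104346144, Serpina3m (ENSMUSG00000079012) at 104338486 to 104394257 and Serpina3n (ENSMUSG00000021091) at 104406729 to 104414329 are on the plus strand. Serpina3k and Serpina3m share 60 exonic bases at their common annotated start.

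The coding sequences within each set of copies are close. Over aligned bases, pairs of Serpina1 members were 96.3% to 98.5% identical, pairs of Serpina3 members 83.5% to 92.0%, and pairs between the sets 61.0% to 63.7%. Serpina6 was 59.9% to 61.3% identical to the other members. The stretch that codes for the reactive centre loop is shown because it meets the protease and differs between the copies. It runs from the conserved hinge to the conserved motif behind the loop, is taken from GENCODE M21 transcripts, and corresponds to residues 363 to 384 of 413 in Serpina1b, Serpina1c, Serpina1d and Serpina1e, and to residues 386 to 407 of 436 in the longer annotated Serpina1a. Capitals mark bases that differ from Serpina1b.
Serpina1b: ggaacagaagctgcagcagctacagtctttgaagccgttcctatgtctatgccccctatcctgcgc
Serpina1a: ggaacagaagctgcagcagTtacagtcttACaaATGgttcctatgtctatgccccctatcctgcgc
Serpina1c: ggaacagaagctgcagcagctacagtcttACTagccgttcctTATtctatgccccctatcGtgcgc
Serpina1d: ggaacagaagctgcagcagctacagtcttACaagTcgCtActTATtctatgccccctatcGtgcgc
Serpina1e: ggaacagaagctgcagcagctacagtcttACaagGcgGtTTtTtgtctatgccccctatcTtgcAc

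Against Serpina1b, the loop stretch of 66 bases differed at 6 bases in Serpina1a, 7 in Serpina1c, 9 in Serpina1d and 9 in Serpina1e. These are 9.1%, 10.6%, 13.6% and 13.6% of its bases, against 2.6%, 3.0%, 2.9% and 3.2% over the rest of the aligned coding sequence. The loop is the part of a serpin that sets which protease it meets. The Serpina3 members varied more, as the same stretch shows with capitals for bases that differ from, or are not aligned to, Serpina3m.
Serpina3m: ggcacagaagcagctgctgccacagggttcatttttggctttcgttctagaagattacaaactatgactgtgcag
Serpina3k: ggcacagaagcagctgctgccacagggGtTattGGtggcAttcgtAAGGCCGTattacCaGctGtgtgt
Serpina3n: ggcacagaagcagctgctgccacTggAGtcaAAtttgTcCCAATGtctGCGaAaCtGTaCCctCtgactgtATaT
Serpina3c: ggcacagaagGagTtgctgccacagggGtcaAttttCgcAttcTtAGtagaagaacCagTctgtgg

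In this stretch 22 positions of the alignment differed in Serpina3k, 25 in Serpina3n and 20 in Serpina3c, gaps included, which is 29.3%, 33.3% and 26.7%. Over the rest of the coding sequence 7.1%, 13.7% and 9.8% of aligned bases differed. No loop stretch is shown for Serpina6, in which the hinge searched for was not found.

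How much of each transcript is particular to its gene matters here, because HTSeq by default does not count a read with several alignments. Of all stretches of 100 bases in the transcripts of Serpina1c, 30.7% occurred in no other annotated gene. That share was 57.2% for Serpina1a, 70.7% for Serpina1d, 85.2% for Serpina1b and 85.6% for Serpina1e. Serpina1a was the copy nearest to Serpina1c, with which it held 58.0% of the Serpina1c stretches in common. The Serpina3 members ranged from 93.9% for Serpina3m to 100% for Serpina3c, and Serpina6 had 100%. With stretches of 50 bases the Serpina1 copies ranged from 20.7% to 70.5%, and with 150 bases from 40.3% to 92.6%. The read length was not stated. The counts of the Serpina1 copies, and of Serpina1c most, therefore leave out reads to an unknown extent, and differences in level between copies are uncertain to that extent.

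**Figure D1:**
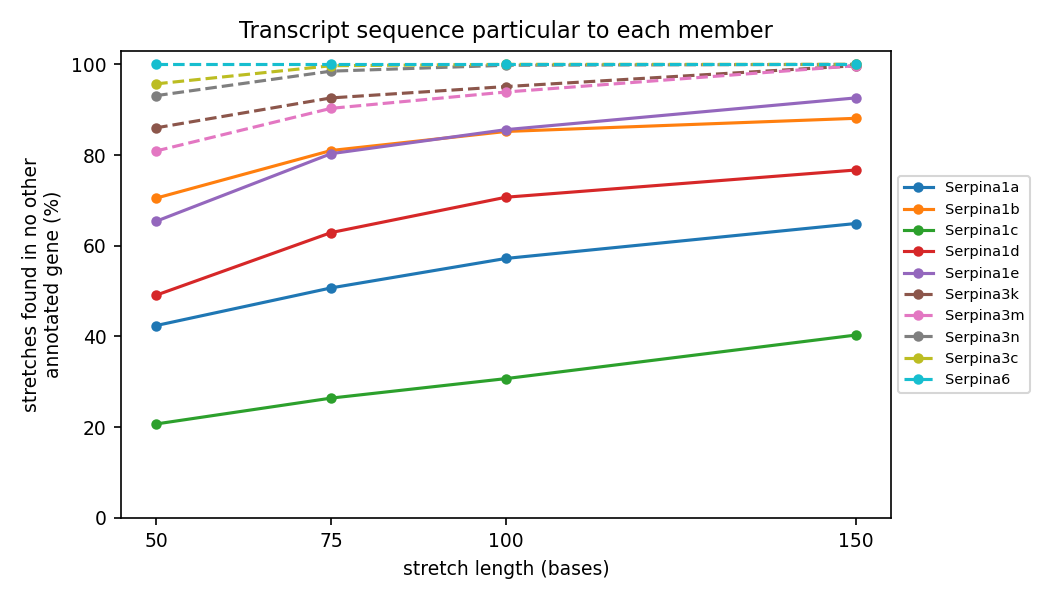
Share of stretches of each member's transcripts that occur in no other annotated gene (percent, vertical axis) by stretch length (bases, horizontal axis), with 1 line per gene. Serpina1c is lowest at every length, from 20.7% at 50 bases to 40.3% at 150, and Serpina6 stays at 100%.

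Serpina1c has a second source of uncertainty. Its exons share 429 bases, 31.5% of its exonic length, with the antisense gene B430119L08Rik. That gene had counts of 19145, 16575 and 11769 in Control and of 21, 494 and 149 in DKO libraries 1, 2 and 3. No strand setting was stated, so reads of this pair may not have been told apart.

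The promoters of the Serpina1 copies were close as well. RefSeq windows on GRCm38.p6 were at hand for 7 of the 10 members, and the 250 bases before each annotated start were used. A run of 55 bases was common to all 5 Serpina1 windows, and is shown because these copies are the ones whose proportions are compared below. On the minus strand of GRCm38.p6 it lies at chr12:103738200-103738254 in Serpina1b and at chr12:103956960-103957014 in Serpina1e, with the core letters bound by the hepatocyte factor HNF1 in capitals.
Serpina1 promoters: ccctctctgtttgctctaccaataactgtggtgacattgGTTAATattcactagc

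The HNF1 core GTTAAT, searched on both strands, was in 6 of 7 member windows, the 5 Serpina1 copies and Serpina3c, and in 6.4% of all 32851 RefSeq windows. In Serpina1b it began 26 bases before the RefSeq start, and in Serpina1e 78 bases before it. These RefSeq starts lie 92.2 kb and 2.1 kb inside the GENCODE spans of Serpina1b and Serpina1e given above, and those of the other 5 windows lie within 63 bases of the GENCODE start. The forkhead letters TGTTTNC were in the 5 Serpina1 windows and in 17.8% of all windows, and CCAAT in the same 5 and in 33.8%. The letters TTCNNNGAA of STAT factors were in none of the 7, and in 7.0% of all windows. These are matches of letters, and windows of copied genes are not independent of each other.

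The libraries differed far more in depth and content than in their labels. Control libraries held 12320487 to 15869639 reads assigned to genes, and DKO libraries 1, 2 and 3 held 309731, 525037 and 1491237. Alb, the albumin gene, took 6.58% to 7.66% of them in Control and 0.0933%, 3.08% and 0.322% in the DKO libraries. Reads at 8600 protein-coding genes nearly silent in Control were used to estimate the background of each DKO library. The targeted genes did not show a loss in every library labelled DKO. Ctnnb1, which encodes β-catenin, had 2650 to 2945 counts in Control and 0, 52 and 65 in the libraries labelled DKO 1, 2 and 3 (edgeR adjusted p = 0.171). At the Control proportion among 157 abundant liver genes, explained below, 1.31, 52.8 and 15.6 reads would stand there, beside 10.3, 7.56 and 18.8 from background. Per 1000 reads of Alb, Ctnnb1 had 2.42 to 3.27 reads in Control and 3.22 in DKO library 2, so no loss was seen in that library. Jup, which encodes γ-catenin, had 196 to 339 counts in Control and 6, 1 and 11 in DKO (edgeR adjusted p = 0.0847), below the 10.6, 9.34 and 20.4 reads estimated from background. Exons outside a deleted part would still be counted, and a DKO library is throughout a library labelled so. Mitochondrial transcripts made up 6.34% to 6.57% of the reads assigned to genes in Control, against 6.27%, 14.4% and 62.7% in DKO libraries 1, 2 and 3. The summed level of 8 hepatocyte markers was 94329 to 105904 CPM in Control and 1676, 43879 and 4090 CPM in the DKO libraries, before scaling by TMM. Of 6 tested bile duct markers 4 were higher and 1 lower in edgeR, and of 8 stellate markers 1 was higher. Of 8 Kupffer cell markers 1 was lower, and of 8 sinusoidal endothelial markers 1 was higher and 2 were lower. The summed Kupffer markers were at 200.5 to 274 CPM in Control and 87.2, 164 and 84.5 CPM in DKO, and the endothelial ones at 252 to 449 and 762, 259 and 177 CPM. The summed markers of stellate cells were at 176 to 293 CPM in Control and 707, 210 and 290 CPM in DKO, and those of bile duct cells at 64.1 to 85.6 and 449, 236 and 172 CPM. Markers of exocrine pancreas, a source of proteases, were at 25.2 to 31.0 CPM in Control, nearly all from Cela1, and at 90.4, 11.4 and 22.1 CPM in DKO. The summed neutrophil markers were at 0.50 to 1.51 CPM in Control and 19.4, 30.5 and 21.5 CPM in DKO. Of these markers 4 of 8 were at 0 in all Control libraries, and Retnlg was at 0 in all 6 libraries. The DKO sums rest on few reads: no neutrophil marker exceeded 11 reads in a DKO library. In DKO library 1 the sum was 6 reads, all of Elane. In DKO library 1 Pecam1 alone gave 182 reads to the endothelial sum, and Pnlip 17 reads to the pancreas sum. Reads from background were not set beside the sum of any of these marker lists. A higher sum in DKO therefore does not show a gain of neutrophils or of any other of these cells. The part of these differences in the members' values was not tested. Fewer hepatocytes and less RNA per hepatocyte cannot be told apart in such bulk libraries.

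In Control liver the members spanned more than 3 orders of magnitude in level. Levels between genes are given as TMM-scaled CPM per kb of exonic length (mean ± SD, n = 3). Serpina3k was highest at 8410 ± 664, followed by Serpina1e at 3482 ± 267. Serpina1c (1750 ± 60.9), Serpina1b (1571 ± 173) and Serpina1d (1538 ± 23.1) came next, and neighbours in this trio overlapped between libraries. Below them stood Serpina1a at 574.2 ± 36.4, Serpina3n at 347.2 ± 56.0, Serpina3m at 138.7 ± 4.02 and Serpina6 at 98.3 ± 19.7. Serpina3c, at 3.20 ± 1.66, was the lowest. No other neighbours in this order overlapped between the Control libraries.

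The order within the Serpina1 copies depended on how length was counted. Per kb of coding sequence Serpina1b came in the third place of all members at 3063 ± 338 and no neighbours overlapped. Counted only over start positions whose 100 bases are particular to the gene, Serpina1c came second at 6155 ± 214, above Serpina1e at 4331 ± 332. Serpina3k was first and Serpina1a, Serpina3n, Serpina3m, Serpina6 and Serpina3c were sixth to last by all 3 lengths. The last 2 ways of counting length were added after the data were examined.

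**Figure D2:**
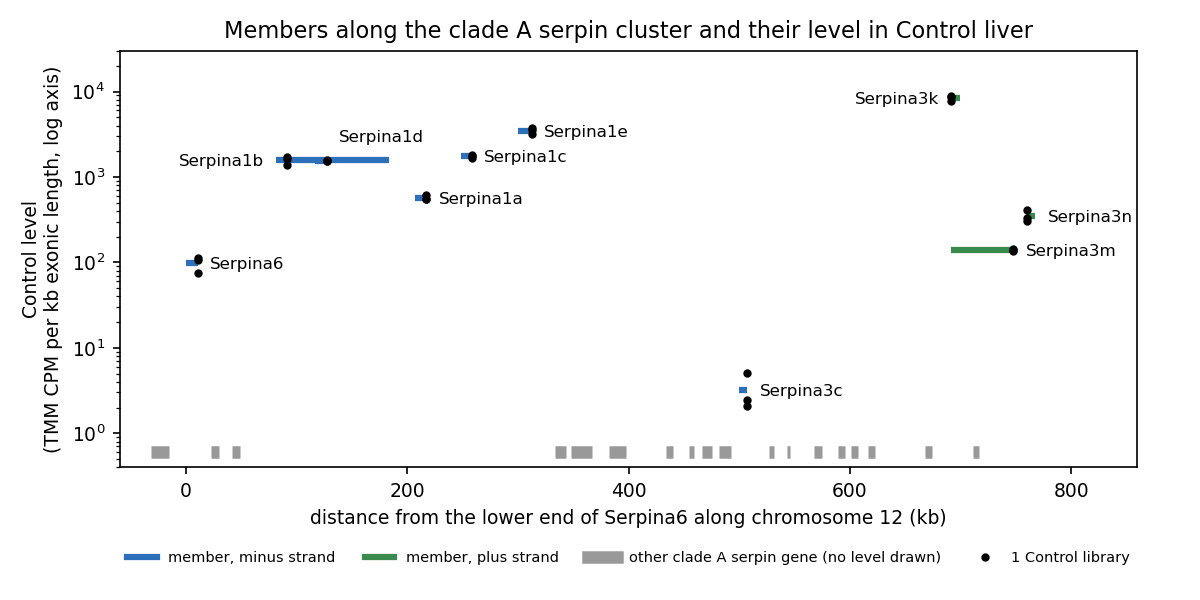
Level of each member in Control liver (TMM-scaled CPM per kb of exonic length, log axis) against its place along the cluster (kb from the lower end of Serpina6). Bars span the gene at its mean, points are the 3 Control libraries, and grey ticks mark 18 other clade A genes and pseudogenes, 17 of them between the outermost members and Serpina10 just outside. Serpina3k stands highest at 8410 and Serpina3c lowest at 3.20.

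The Control libraries differed little for most members. The coefficient of variation of TMM-scaled CPM was 1.5% for Serpina1d, 2.9% for Serpina3m and 3.5% for Serpina1c, and 6.3% to 11% for Serpina1a, Serpina1b, Serpina1e and Serpina3k. It was larger for Serpina3n (16.1%), Serpina6 (20.1%) and Serpina3c (51.9%). Serpina3n had 847, 674 and 628 CPM in Control replicates 1, 2 and 3, and Serpina3c 11.3, 5.36 and 4.58 CPM.

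Set against all genes assigned in a library, the members together took 2.69%, 2.74% and 2.73% of gene counts in Control. In DKO libraries 1, 2 and 3 they took 0.0423% (95% Wilson interval 0.0356 to 0.0502), 1.57% (1.53 to 1.60) and 0.135% (0.129 to 0.141). Mitochondrial transcripts are part of this total, and their part in these shares was not tested. Control was thus nearly constant, while the intervals of the 3 DKO libraries did not overlap. Intervals cover counting error within 1 library only, not spread between libraries. They take each read as independent, and no molecular identifiers were used in the counts, so they may be too narrow.

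Each of the 10 members had a lower TMM-scaled CPM in every DKO library than in every Control library, and 1 of the 10, Serpina3c, passed the test. Of all 15561 genes tested, 36.4% were lower without overlap in the same way. By edgeR with Benjamini-Hochberg adjustment over all genes, 44.1% of genes were called, 12.8% lower and 31.3% higher. For lower calls the members' share, 1 of 10, is close to that background. Their median log2 fold change was -2.83, beside -0.08 over all genes tested. Among 12 abundant secreted liver proteins, a list that includes Alb, the median was -3 and 0 were called by edgeR at this threshold.

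**Figure D3:**
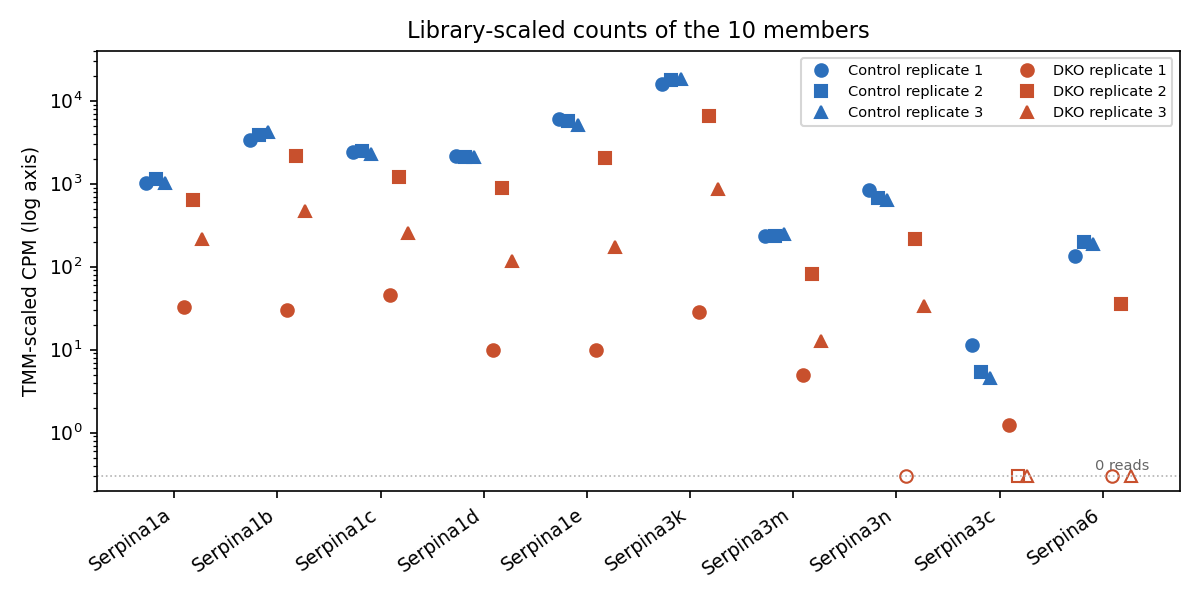
TMM-scaled CPM (log axis) of the 10 members in each of the 6 libraries, with open symbols on the dotted line for 0 reads. The 3 Control libraries lie close together for each gene except Serpina3c, and DKO replicate 2 is the highest DKO library for each gene except Serpina3c.

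Among the α1-antitrypsin copies, Serpina1e had the most reads in Control. It held 80482, 63964 and 50751 counts in Control and 8, 1227 and 162 in DKO libraries 1, 2 and 3. The DKO libraries thus differed by far more than the Control libraries did. Scaled by TMM, it averaged 5631 ± 431 CPM in the Control and 750 ± 1144 CPM in the DKO group (SD, n = 3 each), or -2.91 as the log2 ratio of DKO to Control (SE 1.77, edgeR adjusted p = 0.194).

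Serpina1b had counts of 44566, 43784 and 40722 in Control and of 24, 1281 and 444 in DKO. Each DKO library held more reads of Serpina1b than of Serpina1e, in contrast to each Control library. Scaled by TMM, it averaged 3795 ± 418 CPM in the Control and 886 ± 1123 CPM in the DKO group, or -2.10 as the log2 ratio of DKO to Control (SE 1.54, edgeR adjusted p = 0.272).

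Serpina1c had counts of 32079, 27508 and 22523 in Control and of 37, 721 and 240 in DKO, or -2.24 as the log2 ratio of DKO to Control (SE 1.40, edgeR adjusted p = 0.204). In DKO replicate 1 it was the most counted member. Serpina1d had counts of 29186, 23803 and 20898 in Control and of 8, 530 and 111 in DKO, or -2.66 as the log2 ratio of DKO to Control (SE 1.56, edgeR adjusted p = 0.180). Serpina1a, the least counted copy in Control, had 13480, 12643 and 10016 counts there and 26, 381 and 201 in DKO. Its log2 fold change of -1.83 (SE 1.246, adjusted p = 0.240 in edgeR) was the smallest in size of the 10 members.

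Serpina3k, the most counted member, had counts of 211184, 197933 and 181186 in Control and of 23, 3878 and 814 in DKO. Scaled by TMM, it averaged 17299 ± 1365 CPM in the Control and 2475 ± 3539 CPM in the DKO group, or -2.81 as the log2 ratio of DKO to Control (SE 1.83, edgeR adjusted p = 0.222). Within DKO the spread exceeded the mean, as it did for each member. Serpina3m, an inhibitor-like copy that lies beside Serpina3k, had counts of 3109, 2655 and 2417 in Control and of 4, 49 and 12 in DKO. Its log2 fold change was -2.85 (SE 1.08, adjusted p = 0.0570 in edgeR).

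Serpina3n, the acute phase member, had counts of 11336, 7551 and 6173 in Control and of 0, 129 and 32 in DKO. Its log2 fold change was -3.10 (SE 1.63, adjusted p = 0.140 in edgeR). The count of 0 in DKO replicate 1 was set beside 3.77 background reads and 3.8 reads at the Control proportion of that library, so it tells little at this depth. Serpina3c had counts of 151, 60 and 45 in Control and of 1, 0 and 0 in DKO, or -3.99 as the log2 ratio of DKO to Control (SE 1.22, edgeR adjusted p = 0.0255). Its DKO counts were below the 4.38, 3.22 and 8.01 reads estimated from background alone, and at most 1.52 reads stood for the Control proportion in any DKO library. Its transcripts were therefore not detectable above background in these libraries. The call was lost without DKO replicate 3 (adjusted p = 0.0808 in edgeR), with library totals (0.0545) and on the abundant-gene scale (0.676), and without any 1 of the 3 Control libraries Serpina3c did not pass the filter.

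Serpina6, the corticosteroid-binding globulin, had counts of 1787, 2227 and 1836 in Control and of 0, 21 and 0 in DKO. Scaled by TMM, it averaged 173 ± 34.7 CPM in the Control and 11.8 ± 20.4 CPM in the DKO group, or -3.96 as the log2 ratio of DKO to Control (SE 1.48, edgeR adjusted p = 0.0552). The ratio of Serpina6 to Serpina3k was 0.00846, 0.0113 and 0.0101 in Control and 0.00542 in DKO replicate 2 (95% interval 0.00354 to 0.00829). In DKO replicate 3 the 0 counts, which allow up to 3, compared with 10.8 at the Control proportion and 6.37 from background. In replicate 1 only 0.91 reads stood for the Control proportion.

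The calls depended on the libraries kept and on the tool. Without DKO replicate 2 all 10 members were called lower by edgeR, with adjusted p from 0.00250 for Serpina6 to 0.04995 for Serpina1b. Without DKO replicate 1, 4 were called: Serpina3m, Serpina3n, Serpina3c and Serpina6. Without DKO replicate 3, or without any 1 Control library, 0 were called. DESeq2 called all 10 lower on all 6 libraries, with adjusted p from 0.00101 to 0.0413. Calls over all genes rose in the same settings. Genes called lower numbered 4497 without DKO replicate 2, 3685 without DKO replicate 1 and 4156 with DESeq2, against 1991 in the main test. The number of genes tested can differ between settings, and shares of all genes were taken for the main test only. The members' calls in the other settings are therefore not read as particular to the members. On a scale set by 157 other abundant liver genes, which moves all genes upward by a median of 4.77 in log2, 0 members were called by edgeR. There the values of Serpina1a, Serpina1b, Serpina1c and Serpina3m turned positive, at 1.65, 0.65, 0.99 and 0.58.

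The make-up of the family was then read within each library, since a share of the summed member counts does not depend on how libraries are scaled to each other. The shares of Serpina1a, Serpina1b and Serpina1c were higher, and those of Serpina1e, Serpina3k, Serpina3n and Serpina6 lower, in every DKO library than in every Control library. Some of these gaps lay within counting error. For Serpina1e in DKO replicate 2 the 95% Wilson interval was 14.2% to 15.7%, beside 15.1% in Control replicate 3. For Serpina3n it was 1.13% to 2.23% in DKO replicate 3, beside 1.83% in Control replicate 3. In DKO replicate 1 the intervals of Serpina3n and Serpina6 ran from 0 to 2.85%, beyond all their Control shares. Shares of other genes were not set beside these. No test was made of these shares, because 3 against 3 libraries cannot give a two-sided exact permutation p under 0.1. Serpina3k held 49.4%, 51.8% and 53.8% of member counts in Control and 17.6%, 47.2% and 40.4% in DKO libraries 1, 2 and 3. Serpina1e held 18.8%, 16.7% and 15.1% in Control and 6.11%, 14.9% and 8.04% in DKO. For both genes DKO replicate 2 was the nearest to the lowest Control library.

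Serpina1a held 3.15%, 3.31% and 2.98% in Control and 19.9% (95% Wilson interval 13.9 to 27.5), 4.64% (4.20 to 5.11) and 9.97% (8.74 to 11.4) in DKO. Serpina1c held 7.51%, 7.20% and 6.69% in Control and 28.2% (21.2 to 36.5), 8.77% (8.18 to 9.41) and 11.9% (10.6 to 13.4) in DKO. The intervals of both genes lay above their Control values in each DKO library. Serpina1b held 10.4%, 11.5% and 12.1% in Control and 18.3%, 15.6% and 22.0% in DKO. Without DKO replicate 1 the difference between the group means fell from 8.34 to 4.16 percentage points for Serpina1a and from 9.18 to 3.21 for Serpina1c, and that of Serpina3k moved from -16.64 to -7.90. Per start position particular to the gene, a setting chosen after seeing the data, the difference of Serpina1b was 2.58 percentage points in place of 7.32. Serpina1d overlapped between the groups, at 6.21% to 6.83% in Control and 5.51% to 6.45% in DKO.

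**Figure D4:**
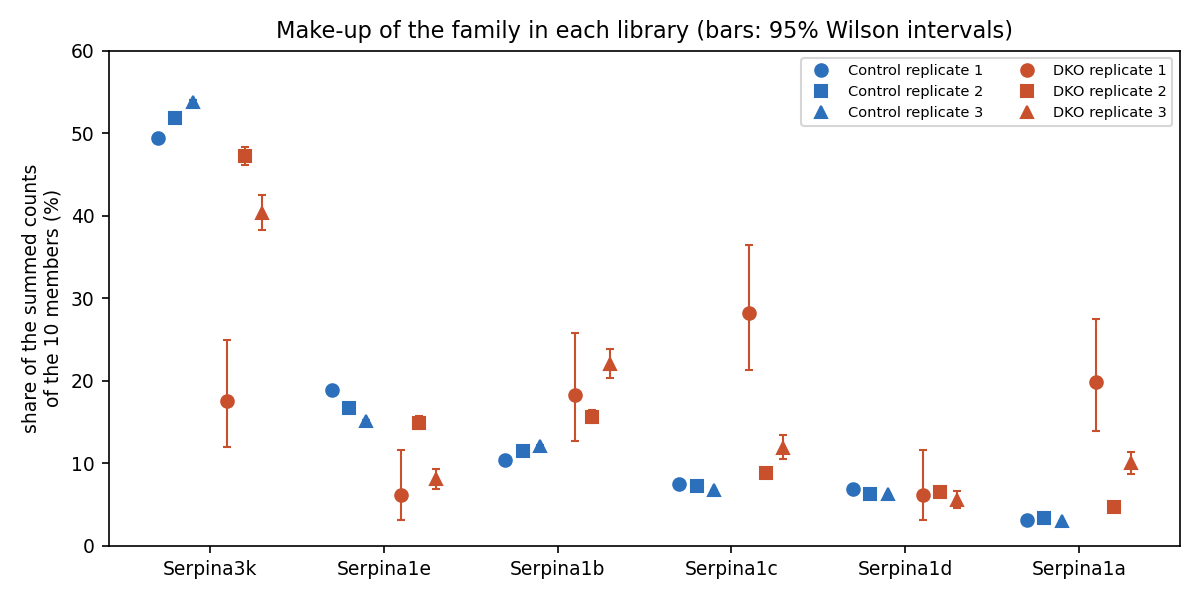
Share of the summed counts of the 10 members held by each of the 6 most counted members (percent, vertical axis), per library, with 95% Wilson intervals that cover counting error only. Serpina1a, Serpina1b and Serpina1c lie higher and Serpina1e and Serpina3k lower in all DKO libraries, and the intervals of DKO replicate 1 are wide because it held 131 member counts.

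Within the α1-antitrypsin copies alone, the share of Serpina1b overlapped between the groups, at 22.3% to 28.1% in Control and 23.3% to 38.3% in DKO. That of Serpina1d was lower without overlap, at 13.9% to 14.6% in Control and 7.77% to 12.8% in DKO. In DKO library 1 its 95% interval, 3.99% to 14.6%, reached Control values. Serpina1e was also lower, and Serpina1a and Serpina1c were higher, without overlap. The ratio of Serpina1a to Serpina1e was 0.168, 0.198 and 0.197 in Control and 3.25, 0.311 and 1.24 in DKO. The ratio of Serpina1b to Serpina1e was 0.554, 0.685 and 0.802 in Control and 3.00, 1.04 and 2.74 in DKO. For both pairs each DKO library stood above each Control library, and DKO replicate 2 stood nearest to Control. The ratio of Serpina1b to Serpina3k behaved alike, at 0.211 to 0.225 in Control and 0.330 to 1.04 in DKO. The ratio of Serpina1e to Serpina3k overlapped between the groups. Reads with several alignments were 18.1% to 20.2% of the Control reads, and in DKO libraries 1, 2 and 3 they were 9.90%, 14.4% and 28.6%. Their share was also taken among reads assigned to genes, ambiguous reads and reads with several alignments. By that measure it was 33.4% to 37.1% in Control and 78.5%, 75.3% and 85.7% in DKO libraries 1, 2 and 3. The part of these differences in the shares of the copies was not tested. Background reads estimated for the 5 copies were 1.77 to 7.99 per gene and DKO library. With them subtracted, the differences between the group means of Serpina1a, Serpina1b, Serpina1c, Serpina1e and Serpina3k had the same sign.

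Albumin, made by the same cells, gave a reference inside each library. The Serpina1 copies summed to 0.164, 0.181 and 0.179 reads per read of Alb in Control and to 0.356, 0.256 and 0.241 in DKO libraries 1, 2 and 3. By gene, Serpina1a, Serpina1b and Serpina1c were higher against Alb in every DKO library than in every Control library, and Serpina6 was lower, so 3 of 10 members were higher and 1 lower without overlap. Among 156 other abundant liver genes, 25.6% were higher against Alb in this way and 3.21% lower. The gap of Serpina6 lay within counting error in DKO libraries 1 and 2. Its 95% intervals there were 0 to 13.3 and 0.85 to 1.99 reads per 1000 reads of Alb, beside 1.47 in Control replicate 1. Against the sum of 12 abundant secreted proteins, Serpina1a and Serpina1c were again higher and Serpina6 lower without overlap. For Serpina6 the 95% interval of DKO library 2, 0.458 to 1.07 per 1000 reads of that sum, again included Control replicate 1, at 0.79. Serpina1b overlapped, at 0.0197 to 0.0271 in Control and 0.0237 to 0.0427 in DKO. Per 1000 reads of Alb, Serpina1b had 36.6, 46.1 and 50.2 reads in Control and 83.0, 79.3 and 92.4 in DKO. This was the narrowest range among the DKO libraries for these 3 copies. The value of DKO library 1 rests on 24 reads of Serpina1b. Its 95% interval, 54.9 to 126, is wider than that range, so the narrowness is not resolved. Serpina1a had 11.1, 13.3 and 12.4 in Control and 90.0, 23.6 and 41.8 in DKO. Serpina3k, at 174, 209 and 223 in Control and 79.6, 240 and 169 in DKO, overlapped between the groups.

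The count of each member was also compared with the count that its Control proportion among 157 abundant liver genes would give. In DKO replicate 2, the library with most liver RNA, Serpina1a had 381 reads for 223 at the Control proportion, and Serpina1b 1281 for 803. Both ratios, 1.71 and 1.60, lay above those of 99.4% of the abundant genes of that library. Serpina1c had 721 for 505 (98.1%), while Serpina1e, with 1227 for 1196, and Serpina3k, with 3878 for 3664, lay in the middle (55.4% and 64.3%). In DKO replicate 3 Serpina1a had 201 for 65.7, above 91.7% of the abundant genes, and Serpina1e 162 for 352, above 15.3%. In DKO replicate 1 they had 26 for 5.55 and 8 for 29.8. Against other liver transcripts Serpina1a was thus above its Control proportion in each DKO library, and Serpina1e was at it in replicate 2 and below it in replicates 1 and 3. The abundant genes themselves scattered widely in DKO replicates 1 and 3, and the 6 most counted members lay within the middle 95% of them there.

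**Figure D5:**
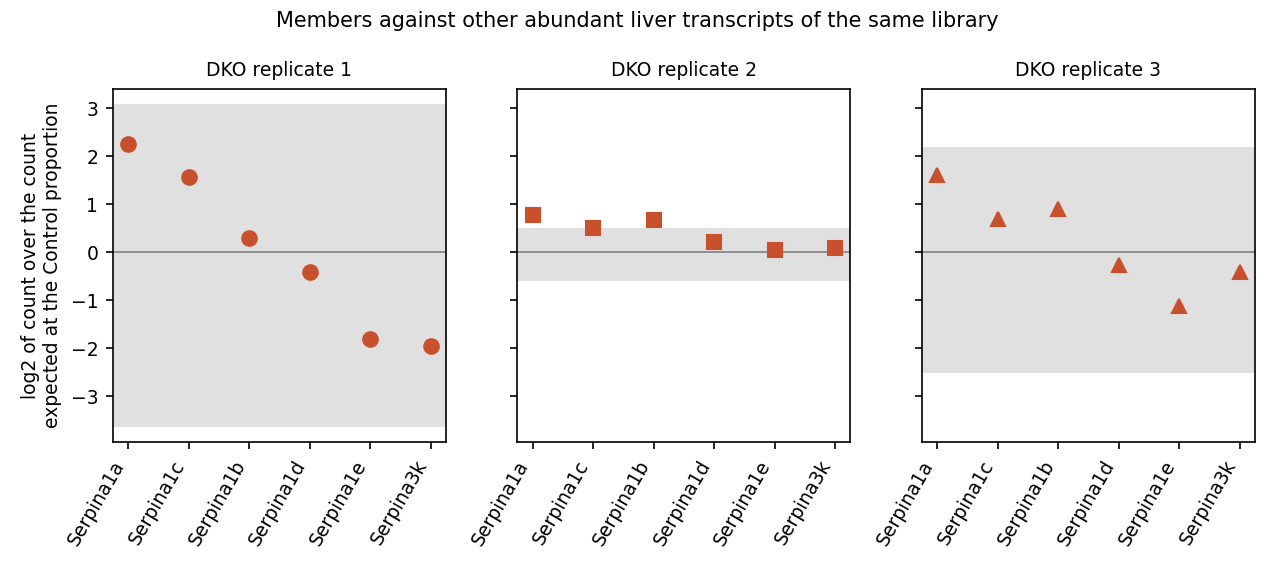
Log2 ratio of the count of 6 members to the count at their Control proportion among 157 abundant liver genes (0.5 added to the count), per DKO library; grey bands hold the middle 95% of the abundant genes. In replicate 2 the band runs from -0.58 to 0.49 and Serpina1a, Serpina1b and Serpina1c lie above it at 0.77, 0.67 and 0.51, and in the other libraries all 6 members lie inside wider bands.

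The other clade A serpins had lower levels than most members. Of 16 listed genes 8 were tested, 3 were called lower and 0 higher by edgeR, with a median log2 fold change of -2.61. Of all genes tested, 12.8% were called lower. Reads at the Control proportion and from background were not set beside the counts of these genes. Serpina12, also called vaspin, had counts of 1350, 1340 and 1212 in Control and of 8, 18 and 10 in DKO, or -2.78 as the log2 ratio of DKO to Control (SE 0.69, edgeR adjusted p = 0.00910). Serpina11 had 373, 350 and 332 counts against 2, 4 and 1, or -3.28 as the log2 ratio of DKO to Control (SE 0.78, edgeR adjusted p = 0.00766). Serpina7, the thyroxine-binding globulin, had 137, 47 and 105 counts in Control and 0 in each DKO library (adjusted p = 0.0121 in edgeR). Its mean of 96.3 Control counts was near the 85.3 of Serpina3c, for which at most 1.52 reads stood for the Control proportion. The 0 counts of Serpina7 therefore tell little at this depth. Serpina10, the protein Z-dependent inhibitor of blood clotting, had a log2 ratio of -2.50 (edgeR adjusted p = 0.122), and the pseudogene Serpina4-ps1 one of -2.36 (adjusted p = 0.169). Serpina3g and Serpina9 had 0.16 and 1.35 (adjusted p = 0.928 and 0.0922).

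Serpins of other clades, partners and regulators were read from lists as well. Of 12 tested serpins of other clades 2 were higher and 1 lower in edgeR, with a median log2 fold change of -2.41. The antithrombin gene Serpinc1 had -2.51 (adjusted p = 0.133) and the C1 inhibitor gene Serping1 -2.72 (adjusted p = 0.101). The neuronal serpin Serpini1 had counts of 1, 1 and 0 in Control and of 23, 11 and 18 in DKO, and Serpine2 had 34, 20 and 26 against 9, 25 and 46 (adjusted p = 0.000671 and 0.00261 in edgeR). Among target proteases and hormone partners 2 of 6 tested genes were higher and 0 lower. Of all genes tested, 31.3% were called higher and 12.8% lower. The 2 higher partners were neutrophil elastase, Elane, with 0 counts in Control and 6, 1 and 11 in DKO (adjusted p = 0.00121 in edgeR), and trypsin, Prss1. Prss1 had 0 counts in Control and 6, 2 and 22 in DKO (adjusted p = 0.00144 in edgeR). Elane, Prss1 and Serpini1 had no more than 10 counts summed over Control, the limit set for genes used to estimate background. Whether their DKO counts exceed background was not tested. The prothrombin gene F2 had a log2 ratio of -2.99 (edgeR adjusted p = 0.124) and Hsd11b1, which activates glucocorticoids, one of -2.51 (adjusted p = 0.181).

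Of 15 regulators of clade A serpin genes 1 was called lower and 0 higher by edgeR, with a median of -1.34. Foxa1, a forkhead factor of hepatocytes, had counts of 251, 258 and 284 in Control and of 0, 2 and 1 in DKO, or -4.13 as the log2 ratio of DKO to Control (SE 0.96, edgeR adjusted p = 0.00680). Its DKO counts were not set beside reads at the Control proportion or from background. Hnf4a had -2.55 (adjusted p = 0.152) and Cebpa -2.52 (adjusted p = 0.206). Of 16 genes of the secretory pathway that serpins pass through, 0 were called by edgeR. Their median was -1.87, with -2.60 for the chaperone gene Hspa5 (adjusted p = 0.104) and -2.81 for Calr (adjusted p = 0.116).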

How the data were processed

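Liver RNA of 3 Control and 3 DKO libraries had been counted per gene. The authors deposited raw read counts per gene, not normalized. The submitters' processing notes name STAR, HTSeq and the build mm10. No version, read length, strand setting or annotation release was stated. Beside 43346 gene IDs a table has 5 summary rows without a gene, with 65.1% to 66.7% of the Control reads and 95.3% to 97.3% of the DKO reads, which were left out of all tests. Groups and replicate numbers followed the titles. No library pair was identical.

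The test was edgeR 4.0.16 in R 4.3.3 (quasi-likelihood, robust, TMM, filterByExpr, Benjamini-Hochberg adjusted p under 0.05, two-sided). Standard errors are the log2 fold change over the root of its F statistic. The test was checked on simulated data. These took their spread from the Control libraries and held no background reads, so the wider spread of the DKO libraries was not covered. Alternatives used DESeq2 1.42.0, limma 3.58.1 with voom, other scalings and filters, a replicate block and each library left out. For background, reads per kb were taken from 8600 protein-coding genes that had no more than 10 counts summed over Control, by GC content (10 bins), times exonic length. The abundant genes, 157 without the members, were protein-coding, not mitochondrial and above 30000 counts summed over Control, and their median ratio scaled each library. Stretches were compared with all GENCODE M21 transcripts on both strands, and unannotated copies were not seen. Coding sequences were aligned with Biopython 1.88. Intervals are 95% Wilson intervals.

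The members, lists and comparisons were chosen with earlier results of these data known. Named from the lists were the other clade A serpins with a mean of at least 100 Control counts or past the threshold and, of each other list, the 2 highest in Control and up to 2 past the threshold. Of the listed genes, Klkb1 had no matching symbol.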

Additional observations from a re-analysis of the deposited data

Results flagged for a closer look

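Reads that HTSeq assigned to no annotated feature, which can include reads in introns, are not used in the comparisons above and were more frequent in every DKO library than in Control. Their share ranged from 37.8% to 40.6% among Control libraries and was 73.7%, 65.3% and 61.0% in DKO libraries 1, 2 and 3. No group was large enough for a search for single outlying libraries.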

How the results depend on the processing

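All 10 members kept a negative log2 fold change under every alternative that gave one, except on the abundant-gene scale, where Serpina1a, Serpina1b, Serpina1c and Serpina3m had 1.65, 0.65, 0.99 and 0.58 and that scale moved all genes upward. Of 177 such values 173 were negative. Members called lower, 1 in the main test, numbered 10 with DESeq2, 6 without a filter, 3 with DESeq2's size factors, with upper-quartile scaling or with the most counted genes and the members left out of scaling, 2 with 1 CPM in 3 libraries, and 0 with library totals, on the abundant-gene scale or at an adjusted p of 0.01. Leaving out 1 library gave 0 to 10. Genes called higher numbered 8884 with DESeq2, 9752 on the abundant-gene scale, 2301 with background subtracted and 11477 without a filter, against 4869. Genes called lower numbered 4156 with DESeq2, 3577 with its size factors, 84 on the abundant-gene scale, 4650 without a filter and 511 at 0.01, against 1991. They numbered 567 to 4497 without 1 library. With upper-quartile scaling they were 2439, and 2697 with the most counted genes and the members left out of scaling. With 1 CPM in 3 libraries they were 2229, with the replicate block 2179 and with library totals 1514. The causes were not tested. The replicate block gave 2 members lower, Serpina3m and Serpina6 (adjusted p = 0.0301 and 0.00172), and ended the call of Serpina3c (0.0629). Deviations from the group means in same-numbered libraries had correlations of 0.121, 0.073 and -0.02. Control replicates 1 and 2 correlated best with the DKO library of the same number, and Control replicate 3 with DKO replicate 2. With 3 libraries per group these values cannot settle whether the numbers pair the libraries. The difference in share between the group means of Serpina3m turned to -0.13 percentage points with background subtracted and to -0.12 without DKO replicate 1, and that of Serpina3c to -0.02 in both, from 0.70 and 0.23, with leave-one-out ranges of -0.12 to 1.11 and -0.02 to 0.36. Depth limits Serpina3c, Serpina3m, Serpina3n and Serpina6, with 0 to 4 reads in DKO replicate 1.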
